A study of Mus musculus with 4 samples.

Results

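The genes described here are 10 markers of the mural cells that surround blood vessels, 6 of them used to mark pericytes (Rgs5, Cspg4, Abcc9, Kcnj8, Pdgfrb and Notch3) and 4 used to mark smooth muscle (Acta2, Tagln, Myh11 and Cnn1). They were taken by symbol from 22180 genes named on the array, and all 10 were found. The arrays (Affymetrix Mouse Gene 2.0 ST) read total RNA of mouse embryos of a mixed C57BL/6J x FVB/N background. There were 4 groups of 1 array each, namely Tbx1 knockout (KO) heads at embryonic day 12.5 (E12.5), wild-type (WT) heads at E12.5, KO palatal shelves at E13.5 and WT palatal shelves at E13.5. Tbx1 encodes a T-box transcription factor of the pharyngeal region, and the comparison asks which genes differ without it. The sources used here do not say which part of Tbx1 was deleted or how many embryos each sample held.

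Pericytes sit within the basement membrane of capillaries and take part in vessel stability, while vascular smooth muscle cells wrap arteries and larger veins and carry a contractile apparatus. Both respond to platelet-derived growth factor B, made by endothelium and received through PDGFRB, and to Notch ligands received through NOTCH3. Pericytes usually have little of the contractile proteins that define mature smooth muscle. In an embryo, Acta2 and Tagln are also transcribed in early skeletal and heart muscle and in myofibroblasts, Pdgfrb in much of the face mesenchyme, and Cspg4 in glial and cartilage precursors, so the 10 genes are markers of mural cells without being exclusive to them.

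Values are log2 expression after RMA, which sets all arrays to a common distribution. Levels of different genes cannot be ranked against each other on an array, so each gene is compared only with itself across arrays. A gene entered a comparison if at least 1 of its 2 arrays was at or above 6.16, the median of all levels of named genes. All 6 pericyte genes and 3 of the 4 smooth muscle genes entered every comparison, whereas Cnn1 was below the limit on all 4 arrays. Since each group is a single array, differences within a tissue have no replicate check and no p-value. In bulk tissue, fewer cells of a type and less RNA per cell cannot be told apart.

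Tbx1 was at 6.25 on the KO head array against 6.83 on the WT head array, and at 6.18 in KO shelves against 7.39 in WT shelves. Across transcript clusters, the 2 head arrays correlated at a Pearson's r of 0.991 and the 2 shelf arrays at 0.988, against 0.973 to 0.979 across tissues. Osr2 and Shox2, factors of palatal mesenchyme chosen for this check after their values were seen, were higher on both shelf arrays (11.15 and 10.99 for Osr2 in KO and WT shelves) than on the head arrays (9.46 and 9.43 in KO and WT heads). As a yardstick, differences given by separate transcript clusters of the same gene disagreed with an SD per cluster of 0.176 in the head and 0.226 in the shelves. This SD describes the probes and holds no variation between embryos.

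Acta2, the smooth muscle alpha-actin gene, had the largest KO minus WT difference of the 10 genes, and its promoter is shown because it holds the best known control elements of a smooth muscle gene. Serum response factor (SRF), with its partners of the myocardin family, binds CArG boxes, and those of Acta2 are known to depart slightly from the consensus. The 250 bases before the RefSeq start site lie at chr19:34255374-34255623 on the minus strand (GRCm38.p6). Capitals mark CC, 6 bases with at most 1 G or C, and GG.
Acta2: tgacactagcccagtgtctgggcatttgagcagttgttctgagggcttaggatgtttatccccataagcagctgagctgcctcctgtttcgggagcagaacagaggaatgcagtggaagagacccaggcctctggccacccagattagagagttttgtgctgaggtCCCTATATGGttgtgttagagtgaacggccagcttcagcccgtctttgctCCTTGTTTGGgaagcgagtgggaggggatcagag
The 2 boxes, CCCTATATGG and CCTTGTTTGG, start 84 and 34 bases before the start site, and each has 1 G or C among its middle bases. Boxes of this relaxed form, which reads the same on both strands, occurred in 8.59% of 32544 RefSeq promoters of the same length, and boxes with A or T alone in the middle in 1.48%. The 7 member promoters searched were those of Rgs5, Kcnj8, Abcc9, Cnn1, Cspg4, Notch3 and Acta2, without Pdgfrb, Tagln and Myh11. Only that of Acta2 held the relaxed form, and none held the strict form. The relaxed form was added after the data were seen and allows the departures known in Acta2. Its match in Acta2 is therefore no independent result. TGGGAA, the core of the site of the Notch factor RBPJ, was found on either strand in the Acta2 and Abcc9 promoters, against 21.6% of all promoters. In Acta2 this match shares 3 bases with the second box.

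In the palatal shelves the 2 kinds of mural genes lay on opposite sides of 0. All 6 pericyte genes were higher on the KO array than on the WT array, by 0.14 to 0.68 on the log2 scale with a median difference of 0.33. The 3 smooth muscle genes that entered were all lower, by differences of -0.90 to -0.21 with a median of -0.43. Among the 11449 genes that entered, 55.2% were above 0 and 44.8% below, and the median difference was 0.021. That the 2 ranges did not overlap only restates these signs. The differences of Kcnj8 (0.19), Notch3 (0.14) and Myh11 (-0.21) were smaller in size than the SD between clusters of a gene (0.226). The members were chosen with earlier results of these data known, so the split is a description only.

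Among the pericyte genes, Cspg4 differed most in the shelves. Cspg4 encodes NG2, a cell-surface proteoglycan of pericytes, and was at 7.47 in KO shelves against 6.78 in WT shelves, a 1.6-fold higher level (log2 difference 0.68). It was the only pericyte gene at least 1.5-fold higher (1 of 6), where 1.91% of all genes that entered were. Of those genes, 1.35% had a difference at least as high as that of Cspg4.

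Abcc9 and Kcnj8 encode the sulfonylurea receptor SUR2 and the pore Kir6.1 of an ATP-sensitive potassium channel and are neighbours in the gene order. Abcc9 was at 7.91 in KO shelves against 7.41 in WT shelves, a difference of 0.50. Kcnj8 was at 6.49 in KO shelves and 6.30 in WT shelves, a difference of 0.19 that is smaller than the SD between clusters of a gene. Both channel genes were higher in KO shelves, and the log2 difference was larger for the receptor gene. Whether the 2 differences are unlike was not tested, and the SD per cluster (0.226) applies to each of them.

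Rgs5, which encodes a regulator that shortens G protein signalling and is a widely used pericyte marker, was at 7.56 in KO shelves against 7.15 in WT shelves (difference 0.41). Its level averages 2 transcript clusters. The brighter differed by 0.30 (9.20 in KO and 8.90 in WT shelves), and the other, under the limit for entry on all 4 arrays, by 0.52. The receptor genes differed less. Pdgfrb, the receptor by which mural cells are recruited, was at 10.22 in KO shelves against 9.97 in WT shelves (0.26), and Notch3 was at 8.10 in KO shelves against 7.96 in WT shelves (0.14). The Notch3 difference is below the SD between clusters of a gene in the shelves (0.226). For Notch3, 25.2% of all genes that entered had a difference at least as high, and for Rgs5 4.6% did.

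Among the smooth muscle genes, Acta2 was at 8.76 in KO shelves against 9.65 in WT shelves, a 1.86-fold lower level (log2 difference -0.90). It was the only smooth muscle gene at least 1.5-fold lower (1 of the 3 that entered), where 1.34% of all genes were, and 0.568% of all genes had a difference at least as low. Tagln, which encodes the actin-binding protein SM22-alpha, was at 6.53 in KO shelves against 6.96 in WT shelves (-0.43), and 2.59% of genes lay at least as low. Myh11, the smooth muscle myosin heavy chain and the marker most restricted to mature smooth muscle, was at 6.43 in KO shelves against 6.64 in WT shelves (-0.21), a difference below the SD between clusters of a gene. Cnn1, the actin-binding protein calponin 1, was at 4.62 in KO shelves and 4.74 in WT shelves. Both Cnn1 levels lie under the limit for entry, so its difference of -0.12 is not a reliable fold.

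**Figure D1:**
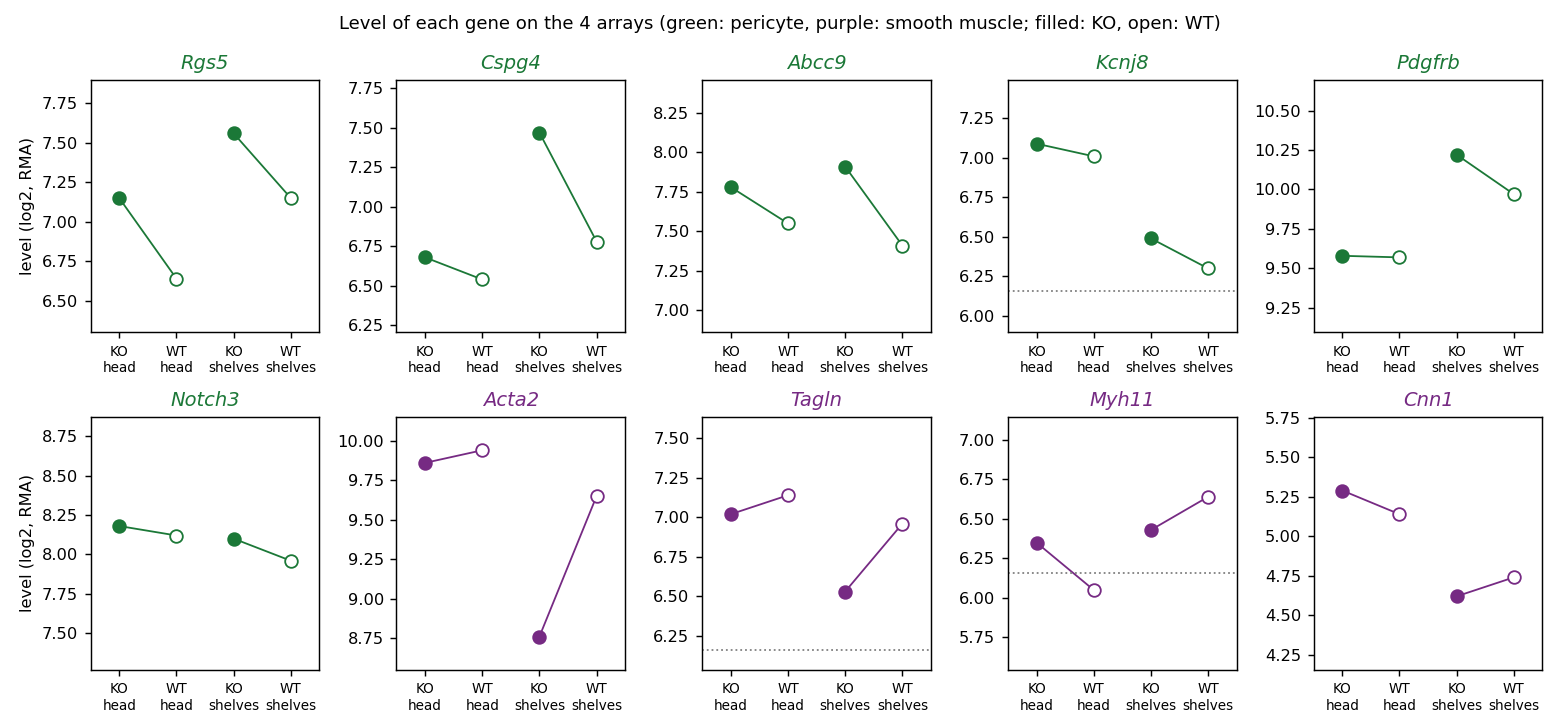
Level of each gene (log2, RMA) on the 4 arrays, 1 panel per gene with an axis of equal length, KO filled and WT open, lines joining the arrays of a tissue, and the limit for entry (6.16) dotted. In the shelves every pericyte gene is higher and every smooth muscle gene lower on the KO array, with Acta2 at 8.76 in KO and 9.65 in WT shelves.

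In the E12.5 head the differences were smaller, and the smooth muscle genes did not lie on one side of 0. The pericyte genes were again all above 0, from 0.01 to 0.51 with a median of 0.11, where 44.5% of 11364 genes were above and 55.5% below 0 and the median of all genes was -0.017. Pdgfrb, at 0.01, turned to -0.011 when each array was centred on its median. Rgs5 was at 7.15 in KO heads against 6.64 in WT heads, a difference of 0.51 (1.42-fold higher). Its brighter cluster differed by 0.53 and the one under the limit for entry by 0.49. Of all genes, 0.343% had a difference at least as high, which placed it at rank 39. None of the 9 genes that entered was past 1.5-fold, as were 0.106% of all genes in the higher and 0.352% in the lower direction.

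The other pericyte genes followed at a distance in the head. Abcc9 was at 7.78 in KO heads against 7.55 in WT heads (0.23), and Cspg4 at 6.68 in KO heads against 6.54 in WT heads (0.14). Kcnj8 (0.09), Notch3 (0.06) and Pdgfrb (0.01) had KO levels of 7.09, 8.18 and 9.58 against WT levels of 7.01, 8.12 and 9.57. These differences and that of Cspg4 were under the SD between clusters of a gene in the head (0.176).

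Acta2 was at 9.86 in KO heads against 9.94 in WT heads (-0.08), and Tagln at 7.02 in KO heads against 7.14 in WT heads (-0.12). Both differences were smaller in size than the SD between clusters of a gene. Myh11 was at 6.35 in KO heads against 6.05 in WT heads, a difference of 0.30 that 2.11% of all genes reached, with its WT level under the limit for entry. Cnn1 was at 5.29 in KO heads and 5.14 in WT heads. The median of the 3 smooth muscle genes that entered was -0.082, and it came to 0.09 without Acta2, so it gives no stable direction.

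**Figure D2:**
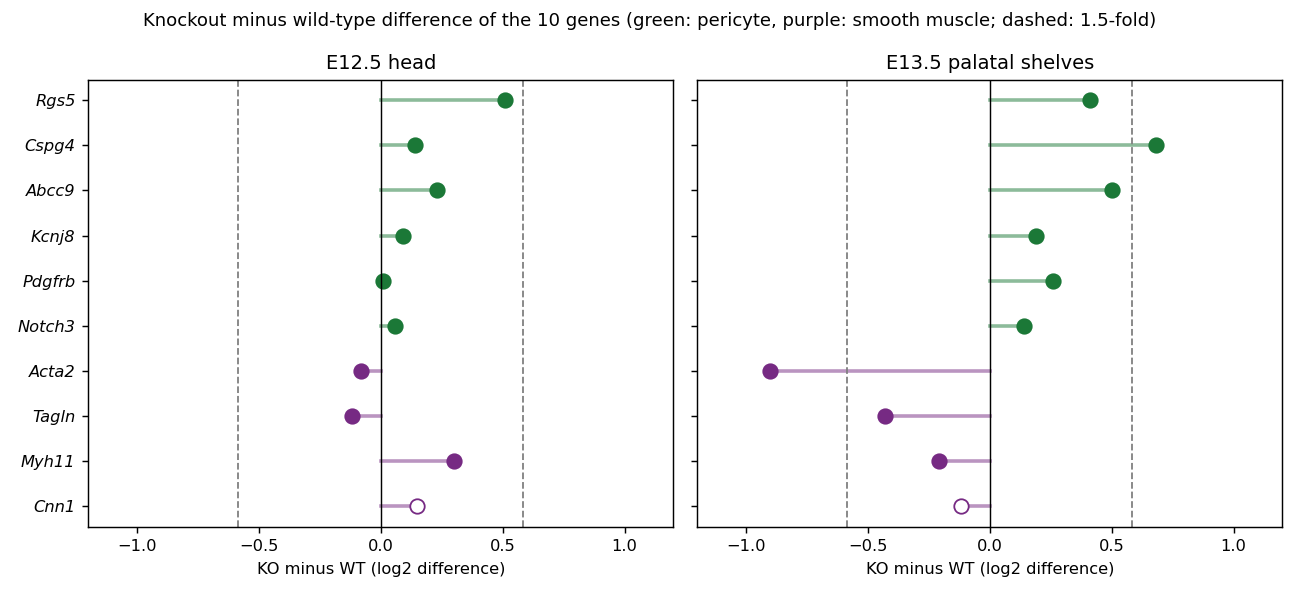
KO minus WT log2 difference of the 10 genes in the E12.5 head (left) and the E13.5 palatal shelves (right), with 1.5-fold dashed and the open point for Cnn1, which did not enter. The pericyte genes lie above 0 in both tissues, and the smooth muscle genes reach -0.90 (Acta2) in the shelves.

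**Figure D3:**
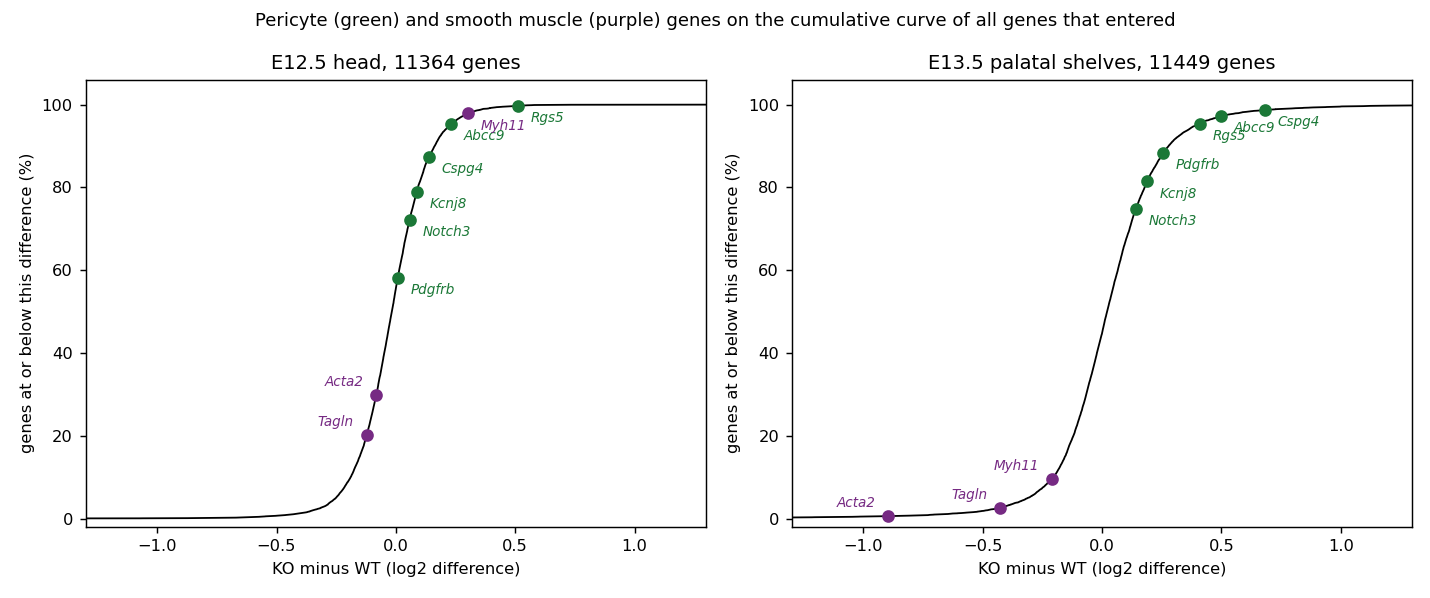
Share of all genes that entered (vertical axis, percent) at or below a given KO minus WT log2 difference (horizontal axis), with the members that entered marked on the curve. The curve is steeper in the head, where the SD of the difference was 0.157, than in the shelves (0.259), and Acta2 lies at its lower end in the shelves.

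Over both tissues, no gene passed for genotype. An additive limma fit of genotype and tissue compared the 2 KO with the 2 WT arrays over 11999 genes and left 1 residual degree of freedom, so its errors rest largely on the prior that limma estimates over the whole table (5.49 degrees of freedom). At a limma adjusted p under 0.05, 0 genes (0.0%) passed, and 628 (5.23%) had an unadjusted p under 0.05. Passing genes numbered 11 with a mean-variance trend in the prior and 150 with 1 common variance, none of them a member.

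For Rgs5 the fitted KO minus WT difference was 0.46 (SE 0.10, unadjusted p = 0.00313, limma adjusted p = 0.834), the smallest unadjusted p of the 9 members fitted. Abcc9 had 0.36 (SE 0.11, limma adjusted p = 0.919) and Cspg4 0.41 (SE 0.14, limma adjusted p = 0.919). Acta2 had -0.49 (SE 0.19, limma adjusted p = 0.919), with a wider error because its differences in the tissues (-0.08 in the head and -0.90 in the shelves) were far apart. Tagln had -0.28 (SE 0.11), Kcnj8 0.14 (SE 0.10), Pdgfrb 0.13 (SE 0.11), Notch3 0.099 (SE 0.10) and Myh11 0.046 (SE 0.14). The genes closest in their 2 differences were thus Rgs5, Kcnj8 and Notch3. Whether a difference varies with tissue could not be tested, since a fit with that term leaves no residual degree of freedom.

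Tissue and stage, which cannot be told apart here, separated the mural genes in another way. Of the 9 members fitted, 5 passed for shelves minus head at a limma adjusted p under 0.05, 3 higher and 2 lower in the shelves, where 27.9% of all genes passed (13.0% higher and 14.9% lower). Kcnj8 fell by 0.65 (SE 0.10, limma adjusted p = 0.00412), with levels of 6.49 and 6.30 in KO and WT shelves against 7.09 and 7.01 in KO and WT heads. Its adjusted p ranged from 9.5e-05 to 0.0193 under the alternatives in which it was fitted, the only member to pass under each of them. Abcc9, the other channel gene, had a shelves minus head difference of -0.0040 (SE 0.11, limma adjusted p = 0.984).

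Pdgfrb rose by 0.52 in the shelves (SE 0.11, limma adjusted p = 0.0145), Rgs5 by 0.47 (SE 0.10, adjusted p = 0.0156) and Cspg4 by 0.52 (SE 0.14, adjusted p = 0.0403). Acta2 fell by 0.69 (SE 0.19, adjusted p = 0.0361), and this difference was -1.10 between the KO arrays and -0.28 between the WT arrays. Without a filter on dim genes the limma adjusted p was 0.0515 for Pdgfrb and 0.0584 for Rgs5. Acta2 and Cspg4 also missed the threshold with arrays centred on their median (adjusted p of 0.0596 and 0.0592), with quantile normalization again (0.1 and 0.0689), without a filter (0.0879 and 0.104) and with robust eBayes (0.0927 and 0.0574). Tagln (-0.33, limma adjusted p = 0.0773), Myh11 (0.34, adjusted p = 0.128) and Notch3 (-0.12, adjusted p = 0.399) did not pass. Cnn1, fitted only without a filter, had -0.54 there (SE 0.13, limma adjusted p = 0.0496).

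Between the WT arrays alone, 1 of 6 pericyte genes (Kcnj8, -0.70) was at least 1.5-fold lower and 1 of 3 smooth muscle genes (Myh11, 0.59) at least 1.5-fold higher in the shelves, against 10.3% and 7.39% of all genes. Between the KO arrays, Cspg4 (0.79) and Pdgfrb (0.65) were at least 1.5-fold higher in the shelves, where 7.74% of genes were, and Kcnj8 (-0.60) and Acta2 (-1.10) at least 1.5-fold lower, where 8.67% were. Some of these calls lay close to the 1.5-fold limit (0.585). Myh11 came to 0.582 with quantile normalization again and 0.545 with cyclic loess, Kcnj8 between the KO arrays to -0.577 with arrays centred on their median, and Rgs5 between the WT arrays passed the limit with its brightest cluster (0.751). The order of levels followed these differences. Rgs5, Cspg4 and Pdgfrb were highest in KO shelves, then in WT shelves, KO heads and WT heads, while Acta2 and Tagln were highest in WT heads, then in KO heads, WT shelves and KO shelves. Notch3 spanned 0.22 over the 4 arrays, from 8.18 in KO heads to 7.96 in WT shelves, less than the SD per cluster of a gene for shelves minus head (0.331 between KO arrays and 0.455 between WT arrays).

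**Figure D4:**
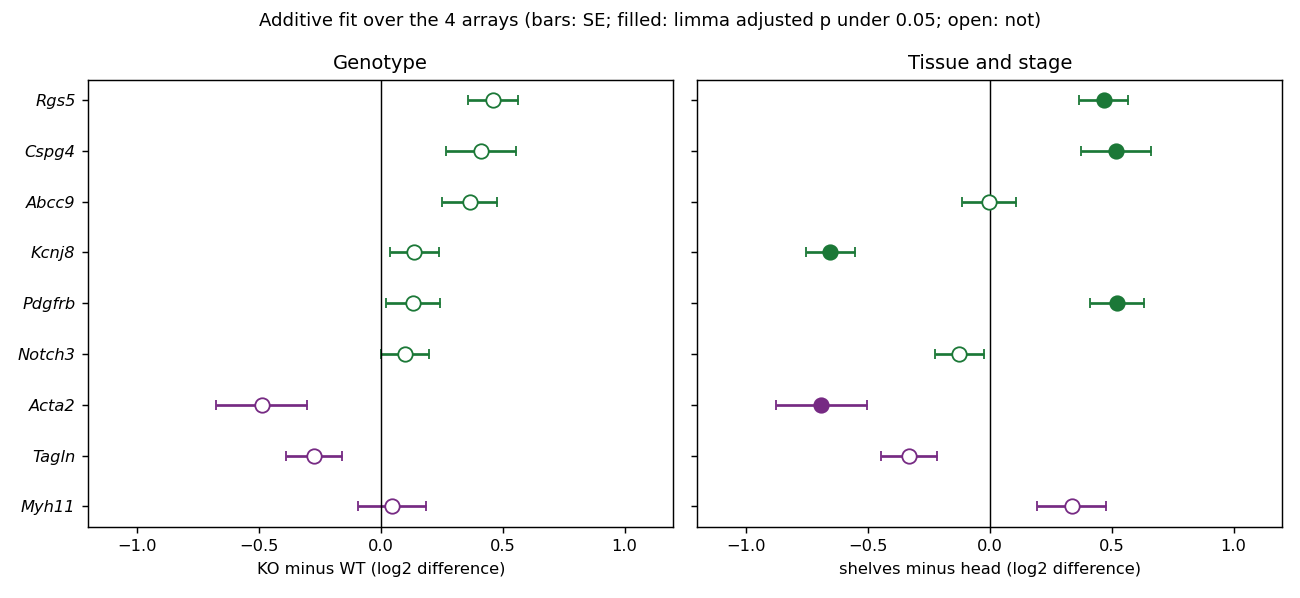
Fitted log2 differences of the 9 members in the additive fit, for KO minus WT (left) and shelves minus head (right), with bars of 1 SE and filled points where the limma adjusted p was under 0.05. No member passed for genotype, and 5 passed for tissue and stage, with Kcnj8 at -0.65 and Pdgfrb at 0.52.

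In the shelves, further pericyte genes had a median above 0 like the pericyte markers, but smaller. Further smooth muscle genes did not share the direction of the smooth muscle markers. Of all genes that entered there, 55.2% were above 0 (median 0.021) and 1.91% at least 1.5-fold higher. Of 18 further pericyte genes on the array, 14 entered in the shelves, with 10 above and 4 below 0, a median of 0.12 and 1 at least 1.5-fold higher. That gene was Ndufa4l2, a mitochondrial protein gene of pericytes that is also induced by low oxygen, at 8.64 in KO shelves against 7.56 in WT shelves (1.08). Cox4i2, which encodes another oxygen-regulated mitochondrial subunit, was at 0.35, Angpt1, the TIE2 ligand that mural cells supply to endothelium, at 0.32 and Ebf1, a transcription factor of mural and other mesenchymal cells, at -0.40. In the head, 6 of the 13 that entered were above 0, with a median of -0.0037, where 44.5% of all genes were above 0. Higd1b, a marker of brain and lung pericytes, was below the limit for entry on every array.

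Of 24 further smooth muscle genes, 18 entered in the shelves, with 13 above and 5 below 0 and a median of 0.16, on the other side of 0 from the 4 named markers. The lowest were Mustn1 (-0.44), which encodes a small nuclear protein of muscle and skeleton, Tpm2, the beta-tropomyosin of smooth and skeletal muscle (-0.43), and Filip1l (-0.38). The highest was Sncg, which encodes gamma-synuclein and is also a gene of neurons, at 7.28 in KO shelves against 6.26 in WT shelves (1.02). In the head, 9 of 18 were above 0 with a median of -0.0040, and Des, the intermediate filament desmin of all muscle types, was at 5.88 in KO heads against 6.38 in WT heads (-0.50). Actg2, Lmod1, Pln and Hspb1 were below the limit on every array.

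The list of SRF and myocardin family factors also holds their modulators and the TGF-beta genes, so not all of it acts on CArG boxes. Its median was 0.065 over 17 genes in the shelves (11 above and 6 below 0) and -0.012 over 18 in the head (9 above and 9 below 0), with 0 past 1.5-fold. Fhl1, of this list, was at 8.01 in KO shelves against 7.66 in WT shelves (0.35), and at 0.22 in the head. Both differences exceeded the SD between clusters of a gene. Srf, named here after its values were seen, was at 8.07 in KO shelves against 8.12 in WT shelves, and Myocd, named likewise, was under the limit in both shelf arrays (5.45 in KO and 5.67 in WT). Klf4, a repressor of smooth muscle genes, was at 7.84 in KO shelves against 7.48 in WT shelves (0.36), and at -0.18 in the head.

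Among the ligands, Pdgfb, the signal of endothelium to PDGFRB, was at 6.52 in KO shelves against 6.12 in WT shelves (0.40) and at 6.40 in KO heads against 6.25 in WT heads (0.15). Pdgfra, the receptor of face mesenchyme, had a difference of 0.08 in the shelves and -0.12 in the head. The 5 PDGF genes had a median of 0.081 in the shelves. Notch ligands, receptors and targets had a median of 0.18 over 12 genes in the shelves and of -0.051 over 15 in the head. In the shelves 9 of the 12 were above 0, where 55.2% of all genes that entered were. Of the targets, Nrarp, a feedback inhibitor, was at 0.42 and Hes1 at 0.17 in the shelves, while Hey1 (-0.36) and Hey2 (-0.23) were below 0. In the head Hey2 was at 0.30 and Hes1 at -0.21. Rgs4, a relative of Rgs5, was at 6.73 in KO shelves against 6.04 in WT shelves (0.69), and at 6.54 in KO heads against 6.86 in WT heads (-0.32).

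**Figure D5:**
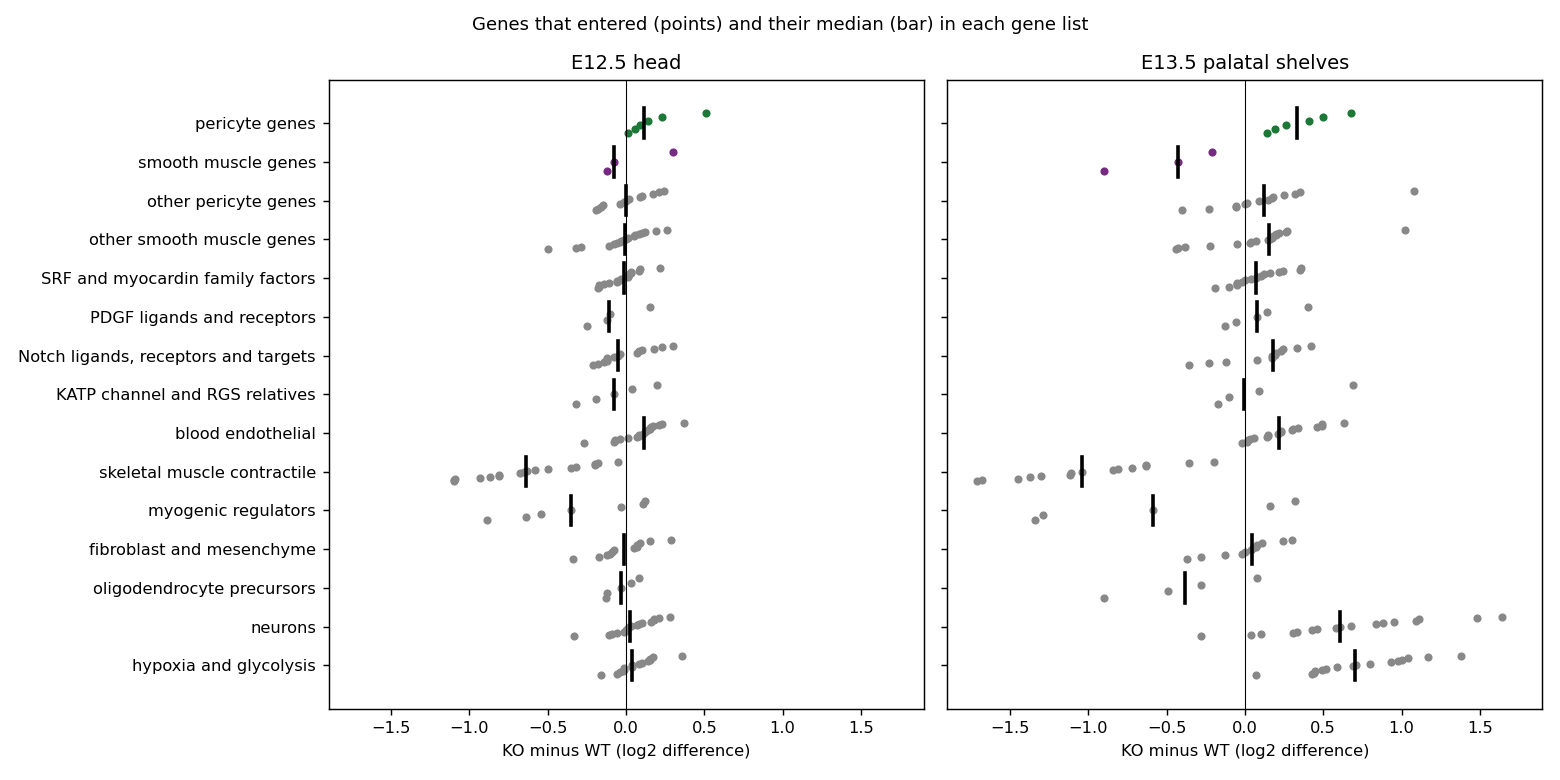
KO minus WT log2 differences of the genes that entered (points) and their median (bar) in each gene list, in the head (left) and the shelves (right). In the shelves the medians are 0.33 for the pericyte genes, -0.43 for the smooth muscle genes, 0.16 for the other smooth muscle genes and -1.04 for skeletal muscle contractile genes.

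Markers of other cell types also differed between the KO and WT arrays, and their part in the differences of the 10 genes was not tested. Of all genes that entered, 44.8% were below 0 and 1.34% at least 1.5-fold lower in the shelves, and 55.5% and 0.352% in the head. Skeletal muscle contractile genes were below 0 in 15 of 15 that entered in the shelves, with 13 at least 1.5-fold lower and a median of -1.04, and in 18 of 18 in the head, with 10 at least 1.5-fold lower and a median of -0.64. The mean level over the 23 genes of that list was 5.86 in KO shelves against 6.64 in WT shelves, and 6.15 in KO heads against 6.69 in WT heads. Actc1, the cardiac alpha-actin of embryonic muscle and a close relative of Acta2 with which it can share probe signal, was at 7.59 in KO shelves against 9.27 in WT shelves (-1.68), and at 8.55 in KO heads against 9.66 in WT heads (-1.10). Acta2 differed by -0.90 in the shelves and by -0.08 in the head, and a share of Actc1 signal in its values was not tested. Actn2, the Z-disc alpha-actinin, was at -1.71 in the shelves and -0.81 in the head. Of the myogenic regulators, Myog was at -1.34 and Mymk, the fusogen of myoblasts, at -1.29 in the shelves.

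Vessel and oxygen-responsive genes were mostly higher on the KO arrays. Their part in the differences of the pericyte genes was not tested. Of all genes that entered, 55.2% were above 0 and 1.91% at least 1.5-fold higher in the shelves, and 44.5% were above 0 in the head. Blood endothelial genes were above 0 in 17 of 18 in the shelves (median 0.22, 1 at least 1.5-fold higher) and in 15 of 20 in the head (median 0.12), and their mean level over 20 genes was 7.64 in KO shelves against 7.44 in WT shelves and 7.53 in KO heads against 7.45 in WT heads. Flt1 and Kdr, the VEGF receptor genes, were at 0.63 and 0.49 in the shelves, and Pecam1, an adhesion molecule of endothelium, at 0.23. Hypoxia and glycolysis genes were above 0 in 16 of 16 in the shelves (median 0.70, 10 at least 1.5-fold higher), with Bnip3 at 1.38 and Vegfa at 1.17, and in 9 of 15 in the head (median 0.043). Their mean level over 18 genes was 8.32 in KO shelves against 7.60 in WT shelves, and 7.47 in KO heads against 7.36 in WT heads. In the head the hypoxia and glycolysis genes that entered ran from -0.16 to 0.36 (Vegfa), with Bnip3 at 0.04.

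Neuronal genes were above 0 in 16 of 17 in the shelves (median 0.61, 9 at least 1.5-fold higher), with a mean level over 18 genes of 8.07 in KO shelves against 7.43 in WT shelves. In heads that mean was 9.60 in KO and 9.56 in WT. For all genes that entered in the shelves, 55.2% were above 0 and 1.91% at least 1.5-fold higher. Fibroblast and mesenchyme genes had a median of 0.047 over 12 genes in the shelves and -0.017 in the head, and Col1a1, the main chain of type I collagen, was at 0.24 in the shelves and 0.29 in the head. Oligodendrocyte precursor genes, which share Cspg4 and Pdgfra expression with mesenchymal cells, were below 0 in 3 of 4 in the shelves (median -0.39). Of all genes that entered there, 44.8% were below 0. The gene of this list above 0 was Pdgfra (0.08). The part of such cells in the Cspg4 difference was not tested.

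The genes with the profile most like that of a member were found by the root mean square distance between log2 levels centred over the 4 arrays, among 11268 genes. Closest to Acta2 were Slc37a1 (0.097), Thbs4, which encodes a thrombospondin of tendon and muscle (0.111), and Olig2, a factor of motor neuron and oligodendrocyte precursors (0.12), and only 1 gene lay within 0.1. Closest to Rgs5 were Kcne4, a potassium channel subunit gene (0.067), the nuclear receptor gene Rora (0.084) and Acvrl1, which encodes the endothelial receptor ALK1 (0.084), with 12 genes within 0.1. Closest to Cspg4 were Smtnl2 (0.036), Renbp (0.053) and Car12, a carbonic anhydrase gene (0.061), with 18 genes within 0.1. The profiles of Kcnj8, Pdgfrb, Tagln and Myh11 each had between 125 and 388 genes within 0.1, so their nearest genes (Magi1, Rarg, Palmd and Mansc1) say little. With 4 arrays, such likeness is a description only.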

How the data were processed

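RNA of 4 samples was measured on 4 arrays. Per the submitters' processing notes, the authors used Affymetrix Expression Console and RMA, and each deposited value is the log2 level of a transcript cluster. The sources used here give no versions, build or annotation. Groups follow the sample titles. In 1 other label the shelf samples are named as heads. Values ran from 1.63 to 13.55, and 0 array pairs were identical. The number of arrays limits the precision, as arrays have no depth.

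Gene names came from the platform annotation. Of 41345 clusters, 23521 carried a single symbol and were used, while 1814 carried several and 16010 none. Of the named clusters, 23328 matched a RefSeq table (GRCm38.p6) by Entrez identifier and 0 symbols changed. Clusters of a gene were averaged. Within pairs, differences were counted from 1.5-fold (log2 0.585), without a test. The additive fit used limma 3.58.1 (lmFit, eBayes, Benjamini-Hochberg) in R 4.3.3 and was tested on simulated data. Residual spread and p-values describe these arrays.

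The members, the gene lists and the 1.5-fold limit were chosen with earlier results of these data known. Some list members were not analysed here, and Des, Heyl and Pdgfra stand on more than 1 list. The text names all members, Tbx1, a selection from the 4 genes of each list that differed most in either pair, and genes among the 3 nearest in profile to members spanning at least 0.5. Higd1b, Actg2, Lmod1, Pln, Hspb1, Srf, Myocd, Osr2 and Shox2 fall outside this rule and were chosen after their values were seen. Promoters are from RefSeq (GRCm38.p6). None is shown for Pdgfrb, Tagln or Myh11. The relaxed CArG form was added after the data were seen. Alternatives were 3 array scalings, the brightest cluster, 2 other filters on dim genes, other folds, the mean, and 3 other limma priors.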

Additional observations from a re-analysis of the deposited data

Results flagged for a closer look

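With 1 array per group, a member is listed here when its KO minus WT difference had opposite signs in the shelves and the head. Another gene named above from the gene lists is included when it also entered in both. Genes named only for a profile near that of a member are left out here. The difference between the tissues was not tested. Myh11 was lower in KO shelves (-0.21) and higher in KO heads (0.30), a shelves minus head value of -0.51. Cnn1, below the limit for entry on every array, did likewise (-0.12 and 0.15, a value of -0.28). Among the other genes named, this value was 1.02 for Rgs4, 0.54 for Klf4, 0.39 for Hes1, 0.20 for Pdgfra, -0.43 for Hey1 and -0.53 for Hey2. Filip1l, at -0.38 in the shelves and 0.28 in the head, did not enter in the head. List medians also had opposite signs, with shelves minus head values of 0.12 for the other pericyte genes, 0.16 for the other smooth muscle genes, 0.08 for SRF and myocardin family factors, 0.19 for PDGF genes, 0.23 for Notch genes and 0.06 for fibroblast genes. In most of these lists the head median was close to 0, between -0.051 and -0.0037, and that of the PDGF genes was -0.11.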

How the results depend on the processing

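The 198 values of member differences under other array scalings, the brightest cluster or other filters all stayed within the SD between clusters of a gene, and 1 of them changed sign (Pdgfrb in the head). Many of these values were fixed in advance. A filter on dim genes cannot change a gene's own difference, and the brightest cluster can change only that of Rgs5, the member with 2 clusters. For the other members only the array scalings could move a difference. For shelves minus head, calls at 1.5-fold were lost for Myh11 between the WT arrays (0.582 with quantile normalization again and 0.545 with cyclic loess) and for Kcnj8 between the KO arrays (-0.577 with arrays centred on their median), and gained for Rgs5 between the WT arrays (0.751 with the brightest cluster). The median of the pericyte genes in the shelves ranged from 0.257 to 0.363, and that of the smooth muscle genes from -0.896 to -0.32. The value of -0.896, and of -1.098 for KO shelves minus KO heads, came with the upper quartile filter, which leaves Acta2 as the 1 smooth muscle gene. The smooth muscle median in the head, -0.082, became 0.035 without a filter, 0.033 as a mean and 0.09 without Acta2 (an alternative added after the data were seen). Between WT shelves and WT heads the smooth muscle median, -0.179, became 0.043 as a mean and 0.206 without Acta2, and the pericyte median, 0.054, became -0.137 without Cspg4, added likewise.

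Counts of genes past the fold moved with its size and the filter. For KO minus WT in the head, 52 genes became 294 without a filter, 8 with the upper quartile filter, 10 at 2-fold and 1 at 3-fold. In the shelves, 372 became 792, 86, 107 and 25 in the same order. For shelves minus head, 2077 in WT became 1003 with the upper quartile filter, 960 at 2-fold and 394 at 3-fold, and 1913 in KO became 975, 784 and 264. The split of genes higher and lower in the head was 12 and 40, and 177 and 117 without a filter. In the shelves it was 219 and 153, and 379 and 413 without a filter. Genes passing for genotype numbered 0, but 11 with a mean-variance trend and 150 with 1 common variance. Of 152 limma values of members, 10 lost the call for tissue and 0 gained one. Cnn1, not among these since it was fitted only without a filter, passed there (-0.539, limma adjusted p = 0.0496). With 1 array per group there were no replicates to pair. Genes dimmer than the limit, such as Cnn1, carry no reliable fold.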
